A study of Homo sapiens with 4 samples.

Results

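The genes described here belong to transforming growth factor beta (TGF-beta) and activin signalling. Earlier results of these data were known when the genes were chosen. The 9 genes were taken by name from the 26484 gene rows of the table. They are 5 ligand genes (TGFB1, TGFB2, TGFB3, INHBA and BMP4), the receptor genes TGFBR1 and TGFBR2, and the transcriptional targets SMAD7 and TGFBI. Poly(A)-selected RNA was sequenced from A375, a human melanoma line grown in DMEM, in 2 libraries of unedited parental cells, p53 wild type, and 2 libraries of a line in which CRISPR-Cas9 had knocked out p53. The knockout libraries carry the numbers 2 and 8 in the table, and are called knockout 2 and knockout 8. Whether a group's libraries are separate cultures, or separate clones, is not in the labels. The p-values therefore set the difference between groups against the spread within them, which may be only technical. No edited line that kept p53 was analysed here, so the loss of p53 and the making of the edited line cannot be told apart.

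TGF-beta ligands are secreted in a latent form and, once freed, bring together a type II receptor (TGFBR2) and a type I receptor (TGFBR1). The type I receptor phosphorylates SMAD2 and SMAD3, which enter the nucleus with SMAD4 and act on target genes. Activin A, a dimer of INHBA chains, signals to the same SMADs through its own receptors, whereas bone morphogenetic proteins such as BMP4 use other SMADs. SMAD7, induced by the pathway, blocks the receptor. TGFBI is a secreted matrix protein named for its induction by TGF-beta. In melanoma the pathway is known both for restraining growth and for promoting invasion.

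Of the 9 genes, 6 were above both parental libraries in each knockout library (TGFB1, TGFB2, TGFBR1, TGFBR2, SMAD7 and TGFBI), 0 were lower in both, and in 3 (TGFB3, INHBA and BMP4) the groups overlapped. Over all 15431 genes tested, 22.8% were higher in both knockout libraries and 23.7% lower in both, 46.4% together. The differences were small. By limma the largest of the 9 was that of TGFBI, 50.1% higher, and TGFBI was the only gene of the 9 that DESeq2 called. By the main test, limma on log2(normalized count + 1), 0 of 9 were called at an adjusted p of 0.05, as were 0% of all 15431 genes; 1 of 9, TGFBI, had an unadjusted p under 0.05, as did 12% of all genes. The edgeR quasi-likelihood test called 0 of 9 and 0% of all genes, with 12.1% of all genes at an unadjusted p under 0.05, and limma-voom called 0 of 9 and 0%, with 11.9%. DESeq2 called 1 of 9, in the higher direction, against 2.44% of the 16330 genes to which it gave an adjusted p, or 1.21% for higher and 1.22% for lower calls. The median log2 fold change of the 9 genes was 0.18, against -0.0057 over all genes tested. In bulk RNA, fewer cells expressing a gene and less RNA per cell cannot be told apart.

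The line was checked against marker genes. The 10 markers of the melanocyte lineage summed to 40385 and 39403 normalized counts in the parental libraries, 34567 in knockout 2 and 34047 in knockout 8. SOX10, a neural crest factor, carried most of this at 25662 to 30033. MITF, the melanocyte master regulator, was lower, at 1645 and 1562 against 849 and 1050 (DESeq2 adjusted p = 0.0027; limma adjusted p = 0.237), and S100B had 2138 and 2037 against 1728 and 1428 (DESeq2 adjusted p = 0.278). The pigmentation genes MLANA and TYR had 0 in every library. Others of the list did not all go lower. PMEL was higher in both knockout libraries, at 28.5 and 28.1 against 55.8 and 36.1 (DESeq2 adjusted p = 0.897). PAX3, at 614 and 626 against 522 and 781, fell on either side of the parental pair. S100A1 was lower, at 5910 and 5557 against 3285 and 5068 (DESeq2 adjusted p = 0.489). Of 8 fibroblast markers all were in the table and 4 passed the filter on low values. The summed level of the 8 was 527 and 457 in the parental libraries, 1172 in knockout 2 and 636 in knockout 8, most of it from PDGFRA. Of the fibroblast collagens, COL1A1 had 47.4 to 73.7 normalized counts, and COL1A2 and COL3A1 stayed between 0 and 3.51. LUM ranged from 31.6 to 165, and DCN had 11.0 and 14.9 against 30.5 and 27.3. Summed blood cell markers were 97.6 and 125 in the parental libraries, 126 in knockout 2 and 273 in knockout 8, most of it from LYZ, at 80.0 and 113 against 114 and 263, with HBA1 and HBB at 0. Summed endothelial markers were 467 and 594, then 818 and 690. Summed epithelial markers lay between 6804 and 7742, most of it from KRT18 at 5569 to 6548, with KRT8 at 926 to 1208. EPCAM stayed between 5.86 and 11.4, and CDH1 was at 0. The markers named here were picked from their lists after their values were seen, and their part in the results was not tested. Total reads per library were 29230554 to 36331894.

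Shown are bases before the RefSeq start of 4 of the 6 genes that were higher in both knockout libraries. The reason is that SMAD complexes are known to contact CAGAC in DNA. The ligand TGFB1 is also known for a promoter rich in GC boxes. The bases come from RefSeq's GRCh38.p14 table, limited to bases outside the GENCODE 29 gene. Searched on both strands were the SMAD core letters CAGAC, the SMAD palindrome GTCTAGAC, the AP-1 letters TGANTCA and the GC box GGGCGG. No motif contains another. Capitals mark every match. For SMAD7, INHBA and BMP4 the whole window of 250 bases before the RefSeq start lies inside the GENCODE gene, so none is shown. RefSeq starts of TGFBI, TGFBR2 and TGFBR1 also lie inside the GENCODE gene. For these the bases nearest the RefSeq start were left out, and 157, 151 and 236 of the 250 bases were kept. TGFBR1 (236 bases, 0 matches) and TGFB3 (250 bases, 2 matches to CAGAC) are not printed.

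TGFBI, chr5:136028738-136028894, plus strand: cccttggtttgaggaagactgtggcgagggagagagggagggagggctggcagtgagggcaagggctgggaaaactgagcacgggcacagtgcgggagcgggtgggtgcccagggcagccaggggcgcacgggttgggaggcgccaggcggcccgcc
TGFBR2, chr3:30606351-30606501, plus strand: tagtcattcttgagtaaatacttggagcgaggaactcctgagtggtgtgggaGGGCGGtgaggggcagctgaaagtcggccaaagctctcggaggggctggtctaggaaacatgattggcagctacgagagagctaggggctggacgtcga
TGFB1, chr19:41353923-41354172, minus strand: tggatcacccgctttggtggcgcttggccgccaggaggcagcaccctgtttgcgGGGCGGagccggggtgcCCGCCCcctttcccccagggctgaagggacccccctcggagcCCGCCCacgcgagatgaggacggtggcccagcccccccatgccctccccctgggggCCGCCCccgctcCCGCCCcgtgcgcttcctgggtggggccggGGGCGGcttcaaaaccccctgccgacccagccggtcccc
TGFB2, chr1:218345086-218345335, plus strand: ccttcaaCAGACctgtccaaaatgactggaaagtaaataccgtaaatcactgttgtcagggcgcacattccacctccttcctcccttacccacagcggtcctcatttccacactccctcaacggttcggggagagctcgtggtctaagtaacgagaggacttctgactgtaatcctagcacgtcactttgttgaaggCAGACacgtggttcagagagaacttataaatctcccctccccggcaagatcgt

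These windows of TGFBI, TGFBR2 and TGFB1 held 0 matches to the SMAD core, to the palindrome or to the AP-1 letters. For TGFBI and TGFBR2 the bases left out, nearest the RefSeq start, were not searched. The TGFB2 window ends at 218345335, well before the GENCODE start at 218346235. TGFB2 held 2 matches to CAGAC, which 38.0% of 35116 RefSeq windows of 250 bases also hold; 6.57% of those hold TGANTCA and 0.182% the palindrome. TGFB1 held 6 matches to GGGCGG, present in 42.6% of windows of that length, and TGFBR2 held 1, present in 26.0% of windows of 151 bases, of which 26.3% hold CAGAC. Over windows of 157 bases, the length shown for TGFBI, CAGAC was present in 27.0%, TGANTCA in 4.01% and GGGCGG in 27.1%. The windows of 151 and 157 bases likewise leave out the bases nearest each RefSeq start. A match is a run of letters and not a measured binding site, and a window without one says nothing of a factor. TGFBR2 has 2 RefSeq starts, and the one nearest the GENCODE start was used.

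Levels of different genes were compared per length, as normalized counts per kilobase of exon (all GENCODE 29 exons of a gene merged). In the parental libraries INHBA and TGFB1 were the most abundant of the 9, with means of 1520 and 1465 per kilobase, higher than 93.7% and 93.3% of 14383 genes ranked. Their libraries overlapped (1646 and 1395 for INHBA, 1485 and 1445 for TGFB1), so their order was not resolved. TGFBI followed at 947, then TGFBR2 at 516, TGFBR1 at 261, BMP4 at 78.3, SMAD7 at 60.0, TGFB3 at 41.8 and TGFB2 at 3.30 per kilobase. From TGFB1 down to TGFB2, each gene's 2 parental values lay above both of the next gene's. In the knockout libraries the order was less separate. TGFBI, at 1273 and 1585 per kilobase, overlapped neither TGFB1 (1591 and 1735) nor TGFBR2 (739 and 586), but it did overlap INHBA (1426 and 1796), and SMAD7 (96.0 and 69.9) overlapped BMP4 (65.6 and 82.7). TGFB1 made up 96.9% to 97.5% of the summed per-kilobase level of the 3 TGF-beta genes in every library, TGFB3 2.19% to 2.89% and TGFB2 0.209% to 0.307%.

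**Figure D1:**
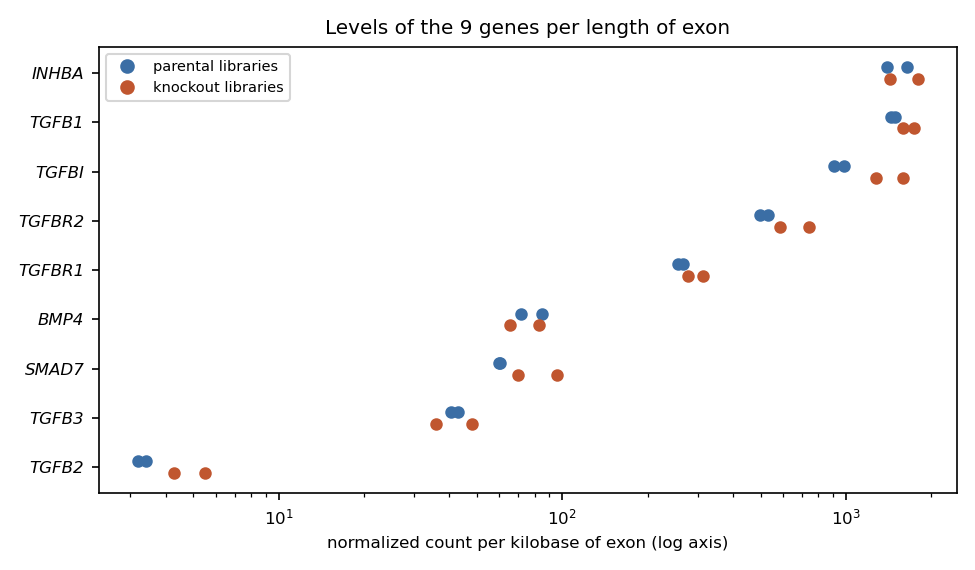
Normalized count per kilobase of exon (log axis) of the 9 genes, 1 point per library, with parental libraries in blue and knockout libraries in orange. INHBA and TGFB1 sit above 1000 in all 4 libraries and TGFB2 between 3.19 and 5.50.

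Among the ligands, TGFB1 (ENSG00000105329.9, chr19:41301587-41353911, minus strand), the main TGF-beta of most tissues, had 4808 and 4678 normalized counts in parental cells, compared with 5153 and 5618 in knockout libraries 2 and 8. Both knockout values lay above both parental ones, and the lower knockout value was 1.07 times the higher parental one. The limma log2 fold change was 0.18 ± 0.08 (SE, n = 2 against 2, adjusted p = 0.473), with a 95% interval of -0.04 to 0.40. The genes HNRNPUL1, CCDC97 and TMEM91 overlap TGFB1 on the opposite strand. HNRNPUL1 had 13229 to 14423 normalized counts, and whether the counting used strand is not given in the sources used here, so the level of TGFB1 is uncertain by the reads that could be shared.

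TGFB2 (ENSG00000092969.11, chr1:218346235-218444619, plus strand), an isoform best known from the nervous system and heart, was close to absent, at 16.4 and 17.5 normalized counts in parental cells, compared with 22.1 and 28.3 in the knockout libraries. These values stand on 15, 20, 21 and 29 reads. Exact Poisson 95% intervals, which cover counting error only, ran from 9.20 to 27.1 in parental library 1 and from 19.0 to 40.7 in knockout 8, and thus overlapped. On the log2 scale the difference was 0.53 ± 0.32 (limma, n = 2 against 2, adjusted p = 0.562). Its 95% interval was -0.31 to 1.38, and it was not called. The part that depth plays in this was not tested.

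TGFB3 (ENSG00000119699.7, chr14:75958099-75982991, minus strand), an isoform known from palate development and wound healing, had 199.5 and 211.4 normalized counts in parental cells. Knockout library 2, at 176, lay below both and knockout 8, at 235, above both. The log2 fold change was -0.01 ± 0.21 (limma, adjusted p = 0.985; 95% interval -0.56 to 0.53). The gene lies within the span of IFT43 on the opposite strand, which had 470.4 to 535 normalized counts.

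INHBA (ENSG00000122641.10, chr7:41667168-41705834, minus strand), the chain of activin A, had 13661 and 11581 normalized counts in parental cells, compared with 11837 and 14908 in the knockout libraries. The groups overlapped, since knockout 2 lay between the parental libraries. On the log2 scale the difference was 0.08 ± 0.16 (limma, adjusted p = 0.857; 95% interval -0.33 to 0.49). Its antisense partner INHBA-AS1 had 14.0 to 29.5 normalized counts, far below INHBA. INHA, the alpha chain that turns activin into inhibin, had 249 and 192 against 154 and 227.

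BMP4 (ENSG00000125378.15, chr14:53949736-53958761, minus strand), a bone morphogenetic protein, had 220 and 262 normalized counts in parental cells, compared with 202 and 255 in the knockout libraries. The groups overlapped. The log2 fold change was -0.08 ± 0.20 (limma, adjusted p = 0.883; 95% interval -0.61 to 0.44).

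**Figure D2:**
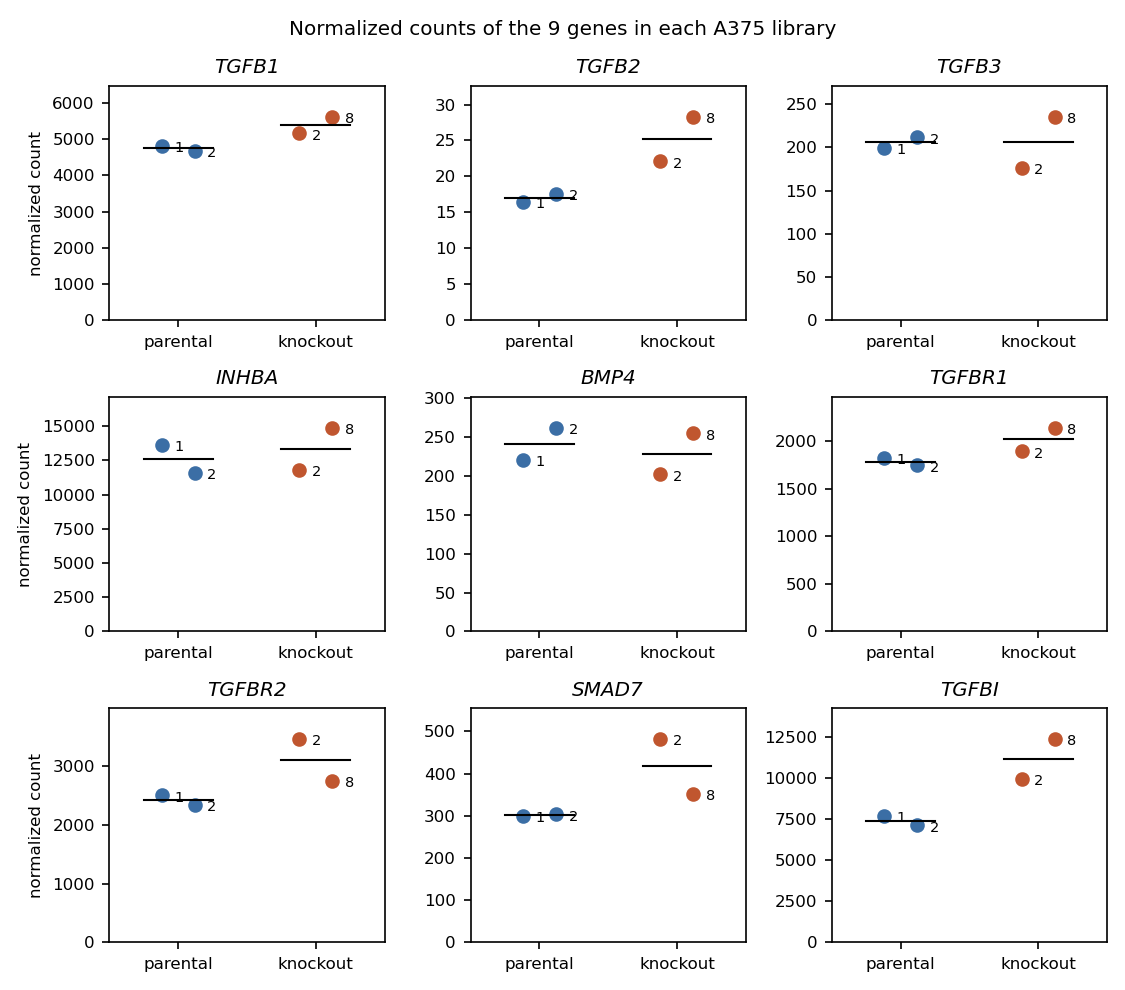
Normalized counts (vertical axis, from 0 and scaled per gene) of each gene in parental libraries 1 and 2 (blue) and knockout 2 and 8 (orange), with the group mean as a line. The groups part in 6 genes and overlap in TGFB3, INHBA and BMP4.

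Of the receptors, TGFBR2 (ENSG00000163513.17, chr3:30606502-30694142, plus strand), which binds TGF-beta first, had 2508 and 2350 normalized counts in parental cells, compared with 3474 and 2758 in knockout libraries 2 and 8. Knockout library 2 was the higher of the pair, and both lay above the parental libraries. On the log2 scale the difference was 0.35 ± 0.13 (limma, n = 2 against 2, adjusted p = 0.420; 95% interval -0.0046 to 0.71), and DESeq2 gave an adjusted p of 0.448. TGFBR1 (ENSG00000106799.12, chr9:99104038-99154192, plus strand), the kinase that TGFBR2 activates, had 1822 and 1747 against 1894 and 2145. Here knockout 8 was the higher, and the log2 fold change was 0.18 ± 0.10 (limma, adjusted p = 0.537; 95% interval -0.08 to 0.43). Per kilobase, TGFBR2 stood at 2.00 and 1.96 times TGFBR1 in the parental libraries, 2.67 times in knockout 2 and 1.87 times in knockout 8, so the knockout libraries lay on either side of the parental ratio.

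SMAD7 (ENSG00000101665.9, chr18:48919853-48952052, minus strand), the inhibitory SMAD, had 300.4 and 303 normalized counts in parental cells, compared with 483 in knockout 2 and 352 in knockout 8. The parental values were nearly equal, and both knockout values lay above them. The log2 fold change was 0.45 ± 0.20 (limma, n = 2 against 2, adjusted p = 0.461; 95% interval -0.07 to 0.96), and DESeq2 gave an adjusted p of 0.599.

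TGFBI (ENSG00000120708.16, chr5:136028895-136063818, plus strand) had 7690 and 7101 normalized counts in parental cells (mean 7395 ± 417 SD, n = 2). Knockout library 2 had 9944 and knockout 8 had 12379 (mean 11162 ± 1722 SD, n = 2). The lower knockout value was 1.29 times the higher parental one. The log2 fold change was 0.59 ± 0.13 by limma (unadjusted p = 0.0084, adjusted p = 0.280; 95% interval 0.24 to 0.94) and 0.59 ± 0.16 by DESeq2 (adjusted p = 0.0168). The edgeR test gave an adjusted p of 0.277 and limma-voom 0.282. The DESeq2 call was lost without parental library 1 or without parental library 2 (adjusted p = 1.00 in each), since the spread was then taken from the knockout libraries alone. The limma log2 fold change of TGFBI was above that of 93.7% of genes tested, that of TGFB2 above 92.9% and that of SMAD7 above 91.3%.

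**Figure D3:**
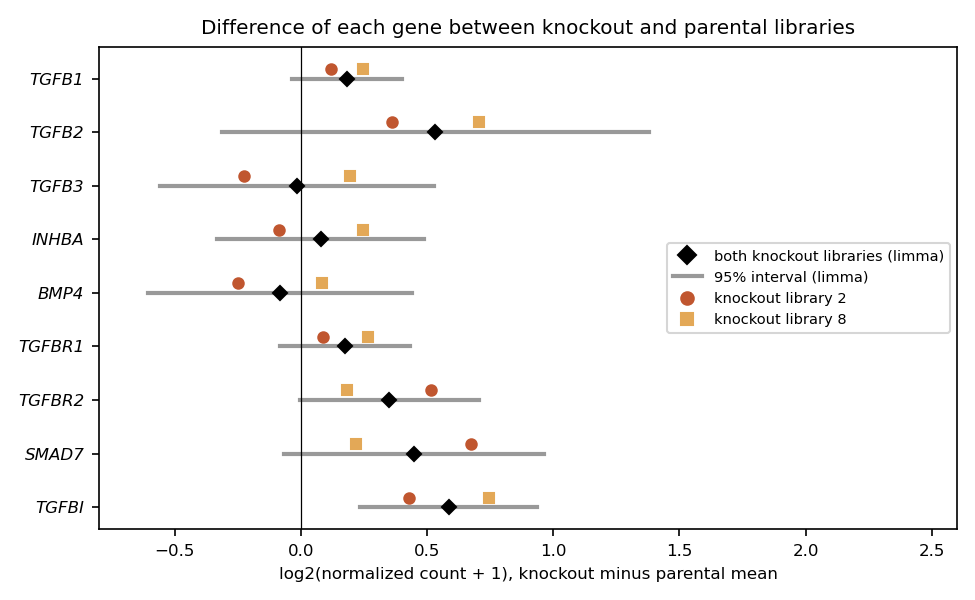
Difference in log2(normalized count + 1) from the parental mean (horizontal axis) for each gene: the limma estimate over both knockout libraries (diamond) with its 95% interval (grey bar), and knockout libraries 2 (circle) and 8 (square) alone. The interval lies above 0 for TGFBI only, and the libraries fall on opposite sides of 0 for TGFB3, INHBA and BMP4.

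The knockout libraries did not move alike. TGFBR2 and SMAD7 were higher in knockout 2 than in library 8, and the other 7 genes were higher in library 8. Over all genes tested 50.4% were higher in library 8. The log2 gap between the knockout libraries was wider than that between the parental libraries for 9 of 9 genes, as it was for 74.4% of all genes tested. Set alone against the parental pair, knockout 2 gave 3 limma calls among the 9, all higher: TGFBR2 (log2 fold change 0.52, adjusted p = 1.76e-04), SMAD7 (0.68, adjusted p = 0.0016) and TGFBI (0.43, adjusted p = 8.28e-04). Of all genes, 15.7% were called higher in that fit and 32.6% in either direction. Knockout library 8 alone also gave 3, TGFB1 (0.24, adjusted p = 0.0269), TGFBR1 (0.27, adjusted p = 0.0296) and TGFBI (0.74, adjusted p = 1.03e-05), against 8.48% called higher and 18.8% in either direction. In these fits the lone knockout library is assumed to vary like the parental pair. DESeq2 on knockout 2 alone called the same 3 genes, against 7.96% of all genes called higher and 17.1% in either direction. On library 8 alone it called TGFBI only, against 3.51% and 8.55%. The difference between the knockout libraries was not tested, since each is a single library.

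Each gene was also set beside the 40 nearest genes with a mean of at least 100 normalized counts. Around TGFB2 the median log2 ratio of the neighbours to the parental mean was -0.16 in knockout 8, against 0.71 for TGFB2 itself. Around SMAD7 and around TGFBI it was 0.11 in knockout 2. For all 9 genes the neighbours' medians over both knockout libraries lay between -0.09 and 0.09. With that median subtracted, the log2 fold change was 0.62 for TGFB2, above the 0.50 of TGFBI, and 0.40 for TGFBR2 and 0.39 for SMAD7.

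Other genes of the superfamily were followed through lists by role, 129 genes in all, of which 102 passed the filter on low values. DESeq2, which gave 107 of them an adjusted p, called 10 higher and 3 lower, where all genes gave 1.21% and 1.22%. The counts by list that follow are to be read against the same shares. Those shares are over genes with a DESeq2 adjusted p. Such genes were 14 of the 28 other ligands, 11 of 14 other receptors and 16 of 18 inhibitors. They were 19 of 20 latency and activation genes, 25 of 27 target genes, and all of the SMAD and BMP target lists. Limma called 0 of the 102. At an unadjusted limma p under 0.05, 19 were higher and 6 lower, against 5.85% and 6.16% of all genes. In 33 of the 102 both knockout libraries lay above both parental ones, and in 14 below, where all genes tested gave 22.8% and 23.7%. The median log2 fold change over the 102 was 0.09. For the genes named from these lists, values stand in the order parental 1 and 2, then knockout 2 and 8, and log2 fold changes are those of DESeq2.

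Among 28 other ligands, DESeq2 called 1 higher and 1 lower. BMP2, a bone morphogenetic protein, had 703 and 737 normalized counts in parental cells, compared with 1382 and 1070 in knockout libraries 2 and 8 (log2 fold change 0.77 ± 0.20, DESeq2 adjusted p = 0.0098). GDF15, a distant member of the family and a p53 target, had 112 and 78.9 against 24.2 and 31.3 (DESeq2 adjusted p = 0.0252), and its 40 neighbours had a median log2 ratio of -0.42 in knockout 2. NODAL had 0 reads in every library. Among 14 other receptors DESeq2 called 0. At an unadjusted limma p under 0.05, where all genes tested gave 12%, there were 2 of the 11 receptors tested. They were BMPR2, a type II receptor for BMPs, at 1759 and 1540 against 2094 and 2897 (limma adjusted p = 0.363), and BMPR1B, a type I receptor, at 34.0 and 44.7 against 76.8 and 63.5 (limma adjusted p = 0.389). The neighbours of BMPR2 had a median log2 ratio of 0.46 in knockout 8.

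The SMADs and their cofactors gave no call: DESeq2 called 0 of 12 and limma called 0 of 12. An unadjusted limma p under 0.05 was found for 0 of 12, against 12% of all genes tested. The smallest limma p were those of SMAD6, the inhibitory SMAD of the BMP branch, at 338 and 317 normalized counts against 298 and 185 (limma adjusted p = 0.537), and of TRIM33, a SMAD4 ubiquitin ligase, at 3041 and 2984 against 3596 and 3071 (limma adjusted p = 0.626).

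Of 18 inhibitors of the pathway, DESeq2 called 2 higher and 0 lower. PMEPA1, a membrane protein that TGF-beta induces and that holds SMAD2 and SMAD3 back, had 10525 and 8121 normalized counts in parental cells, compared with 34630 in knockout 2 and 22744 in knockout 8. The groups were far apart, with a log2 fold change of 1.62 ± 0.24 (DESeq2 adjusted p = 1.42e-08; limma adjusted p = 0.213). SKIL, a SMAD co-repressor that TGF-beta also induces, had 2120 and 1914 against 3794 and 2826 (log2 fold change 0.71 ± 0.20, DESeq2 adjusted p = 0.0168). FST, follistatin, which binds and neutralises activin, was chosen after its values were seen: it had 11276 and 14240 against 2998 and 7207, lower in both knockout libraries, but it was not called (log2 fold change -1.32, DESeq2 adjusted p = 0.405; limma adjusted p = 0.347).

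Of 20 genes of TGF-beta latency and activation, 4 were called higher by DESeq2 and 0 lower. LTBP2, a matrix protein related to the latent TGF-beta binding proteins, had 192 and 147 normalized counts in parental cells, compared with 654 and 331 in the knockout libraries (log2 fold change 1.54 ± 0.39, DESeq2 adjusted p = 0.0062). ITGAV and ITGB8 encode the chains of an integrin that frees TGF-beta from its latent complex. ITGB8 had 9154 and 8330 against 11351 and 12630 (log2 fold change 0.46 ± 0.14, DESeq2 adjusted p = 0.0370). ITGAV had 5208 and 4907 against 12072 and 8586 (log2 fold change 1.03 ± 0.20, DESeq2 adjusted p = 4.63e-05), and its 40 neighbours had a median log2 ratio of 0.51 in knockout 8 and 0.10 in knockout 2. MMP9, a protease able to activate latent TGF-beta, went from 2.19 and 5.26 normalized counts (2 and 6 reads) to 469 in knockout 2 but only 27.3 in knockout 8 (DESeq2 adjusted p = 0.0274). ITGB5, another partner of ITGAV, was not called (DESeq2 adjusted p = 0.501): it had 9816 and 9623 against 7501 and 8636. Of other integrin chains listed, ITGB1 was higher in both knockout libraries, at 13843 and 13541 against 18354 and 14937 (DESeq2 adjusted p = 0.576). In ITGB3 the groups overlapped, at 33547 and 30129 against 36077 and 27637.

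Of 27 target genes of TGF-beta and activin, DESeq2 called 3 higher and 2 lower. PTHLH, parathyroid hormone-like hormone, had 47.1 and 41.2 normalized counts in parental cells, compared with 381 in knockout 2 and 129.9 in knockout 8 (log2 fold change 2.53 ± 0.56, DESeq2 adjusted p = 8.77e-04). ADAM19, a membrane metalloprotease, had 1032 and 1144 against 1559 and 2032 (log2 fold change 0.72 ± 0.20, DESeq2 adjusted p = 0.0164).

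The lower target genes were TGM2, a transglutaminase, at 4485 and 4104 normalized counts against 1824 and 1062 (log2 fold change -1.57 ± 0.27, DESeq2 adjusted p = 1.23e-06), and CCN1, a matricellular protein listed in the table as CYR61, with a log2 fold change of -1.08 ± 0.16 (DESeq2 adjusted p = 6.73e-09). Genes of these lists, whether higher or lower, may also answer to other pathways, and the cause of their differences was not tested. The median log2 ratio of the 25 target genes tested was 0.37 in knockout 2 and 0.03 in knockout 8. Between the parental libraries, library 2 minus library 1, it was -0.13. Over all genes tested the median was -0.0012 in knockout 2 and -0.00078 in knockout 8. The 12 BMP target genes had a median of 0.44 in knockout 2, -0.08 in knockout 8 and -0.16 between the parental libraries. CDKN1A, which TGF-beta and p53 can both raise, had 3561 and 3889 against 4898 and 2603, on either side of the parental pair.

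Of 12 target genes of the BMP branch DESeq2 called 0 and limma 0. DLX5, a homeobox gene, had 6.58 and 2.63 normalized counts against 27.4 and 11.7 (limma adjusted p = 0.393), and HEY1, a transcriptional repressor, had 377 and 343 against 326 and 236 (limma adjusted p = 0.536). Of the 13 genes called in these lists and TGFBI, 14 in all, DESeq2 still called 2 without parental library 1 and 2 without parental library 2, PMEPA1 and TGM2 in both cases, against 14 without knockout 8. Leaving out knockout 2 kept 12, and MMP9 was given no adjusted p there.

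**Figure D4:**
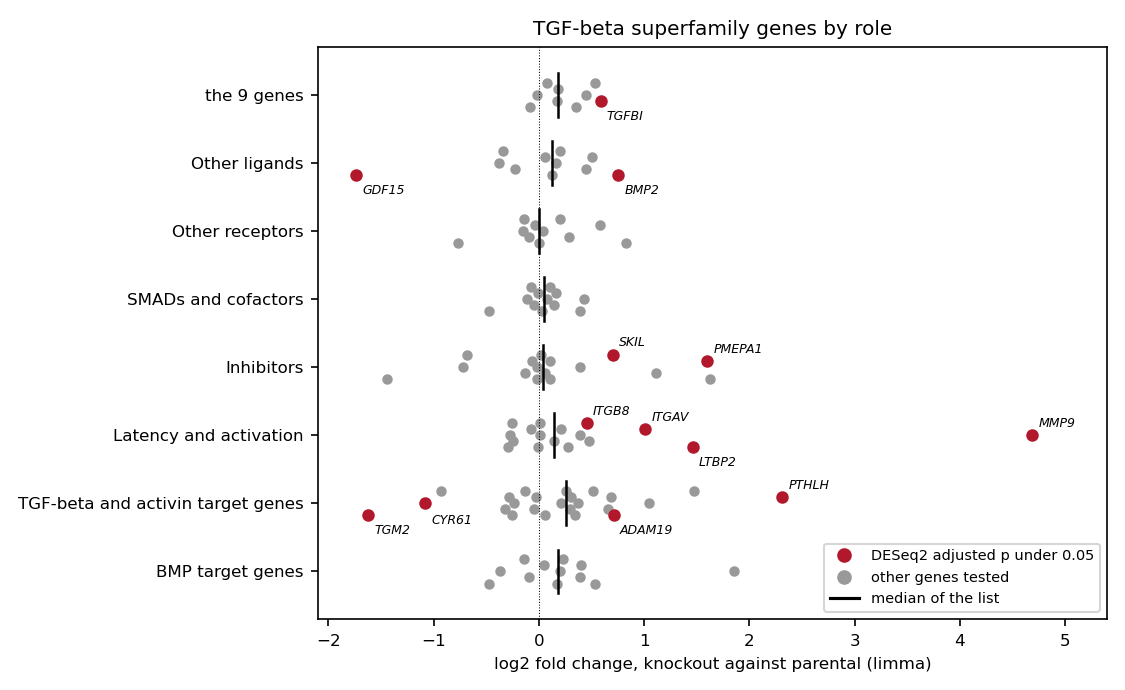
Log2 fold change by limma (horizontal axis) of the tested genes reported here, by role, with genes called by DESeq2 in red and the list median as a line. Calls lie on the higher side in inhibitors and in latency and activation genes, on both sides in other ligands and in target genes, and there are 0 among other receptors, SMADs and BMP target genes.

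The genes whose pattern over the 4 libraries lay closest to that of TGFBI, by Euclidean distance of log2 values from the parental mean among 12276 genes with a mean of at least 100, were LOC100130744 (distance 0.05), CLCN4, a chloride transporter (0.07), and C14orf159 (0.07). CLCN4 had 315 and 296 normalized counts in parental cells, compared with 420 and 493 in the knockout libraries. DESeq2 called 0 of these 3. With 4 libraries such closeness is a description only.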

How the data were processed

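The authors deposited 1 table of normalized counts for 26484 gene symbols in 4 libraries, a signal in which each library's gene reads were divided by 1 size factor, which the spacing of the values reveals. Build hg38 and the tools HTSeq, STAR, deepTools, DESeq2 and Picard are named per the submitters' processing notes. Their versions and roles, the annotation and the strand setting were not given in the sources used here. All values (100% in each library) were whole multiples of a library's step within 0.001, which gave back the reads; the implied factors were 0.912, 1.14, 0.950 and 1.02. Within each group the libraries differed by more than counting noise: chi-square over its degrees of freedom was 5.57 for parental and 61.6 for knockout. Such values leave gene length uncorrected.

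Genes were tested mainly with limma 3.58.1 and its trend option, on log2 of the normalized count plus a pseudocount of 1, for the 15431 genes with at least 10 in at least 2 libraries, two-sided, with Benjamini-Hochberg adjustment at 0.05. Fold changes on that scale understate low genes. DESeq2 1.42.0 (its log2 fold changes are unshrunken), edgeR 4.0.16 and limma-voom ran on the recovered reads. Scripts were tested on simulated data. With 2 against 2 the smallest exact permutation p is 33.3%, and no such test was run. Lengths, positions and overlaps came from GENCODE 29 (GRCh38). The members, gene lists and alternatives were chosen with earlier results of these data known. Named genes were the members, CDKN1A, up to 6 DESeq2 calls per list or otherwise the 2 smallest limma p, and the 3 patterns closest to a called member. Named outside this rule were INHA, NODAL, FST, ITGB1, ITGB3, ITGB5, marker genes and genes overlapping a member. The levels of the edited gene and of some list genes are not reported here.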

Additional observations from a re-analysis of the deposited data

How the results depend on the processing

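No paired analysis was possible because the columns for the knockout line are numbered 2 and 8 and cannot be matched to replicate numbers in the labels. Limma without a filter, with at least 1 CPM in 2 libraries (TGFB2 then dropped out) or with a pseudocount of 0.1, edgeR with TMM or RLE factors and limma-voom called 0 genes and 0 of the 9; DESeq2 called 398 genes and 1 of the 9. Without each library in turn, limma called 0 to 5023 genes and 0 to 3 of the 9, and DESeq2, an alternative chosen after seeing the data, 39 and 46 genes without parental library 1 or 2, 1270 without knockout 2 and 2611 without knockout 8, and 0 to 3 of the 9. The median log2 fold change of the 9 stayed between 0.12 and 0.24 over these settings and with neighbours subtracted. TGFB1, TGFB2, TGFBR1, TGFBR2, SMAD7 and TGFBI kept their direction in every setting run. TGFB3 turned from -0.01 to 0.0010 by DESeq2 and to 0.0013 and 0.0046 by edgeR with TMM and RLE factors. With each library left out, limma gave -0.22 to 0.20 for TGFB3 (0.027 without parental library 2), -0.088 to 0.25 for INHBA (-0.040 without parental library 2) and -0.25 to 0.084 for BMP4 (0.042 without parental library 2). DESeq2 without parental library 2 gave 0.044 for TGFB3, -0.030 for INHBA and 0.053 for BMP4; without knockout 2 it gave 0.20 for TGFB3 and 0.078 for BMP4, and without knockout 8 it gave -0.096 for INHBA. For these 3 genes the libraries of the groups overlap; the cause was not tested. TGFB2 had 15 to 29 reads per library, and the part that depth plays in its result was not tested.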
